A study of Mus musculus with 9 samples.

Results

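The transition from CD4+CD8+ (DP) to CD4 single-positive (CD4SP) thymocytes was measured in 2 genotypes with 4 of the 9 one-colour Agilent arrays of the study, 1 array for each stage and genotype, all on 1 slide. The 4 arrays were chosen by their labels: CD4SP cells of Brd1 conditional knockout (CKO) mice, CD4SP cells of control mice, DP cells of CKO mice and DP cells of control mice. CD4SP cells of the CKO that lacked surface TCRβ had no control array and were left out. CKO mice were Brd1flox/flox with Tie2-Cre, and control mice were Brd1+/+ with Tie2-Cre, so that both genotypes carried the Cre transgene. All were C57BL/6 mice of 8 weeks. The Tie2 promoter is active in endothelial and blood-forming cells, so the allele is not deleted in thymocytes alone. Cells were sorted by surface CD4, CD8 and TCRβ, and the labels do not say whether mice were pooled.

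DP thymocytes are small cells that rearrange the T cell receptor alpha locus with the Rag recombinase and then test the receptor against self peptides on MHC molecules. A receptor that binds MHC class II is followed by the loss of CD8, by the CD4 lineage factor ThPOK (Zbtb7b), and by a maturation programme of survival, egress and cytokine receptor genes that ends with exit into the blood through S1pr1. Brd1, also called Brpf2, is a scaffold subunit of MYST-family histone acetyltransferase complexes. The comparison asks which transcripts differ between the stages in both genotypes and whether the transition has the same shape with and without Brd1.

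On the 4 arrays, between 40.36% (CD4SP control) and 45.9% (DP control) of probes were well above background, and no spot was saturated. The 75th percentile of the signal, to which each array was scaled, was 140.4 (CD4SP CKO), 87.44 (CD4SP control), 115.4 (DP CKO) and 127.6 (DP control) intensity units. Each level is the log2 of a signal divided by its array's 75th percentile, and each difference between stages is CD4SP minus DP on that scale. After this scaling, the 24912 features that were not well above background on any of the 4 arrays had a median difference of -0.18 in CKO cells and 0.80 in control cells, so a signal near background carries a shift of its own. A value whose DP or CD4SP arrays were both not well above background is therefore given as a bound ("at least"), computed per array against the higher of the probe's own signal and the lowest signal well above background.

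The fit tested 21768 features, 11765 of them named genes and 10003 probes without a RefSeq gene symbol. With stage and genotype as terms, limma called 986 features higher in CD4SP cells (4.53% of those tested) and 975 lower (4.48%) at an adjusted p below 0.05, of which 698 and 682 were named genes. By levels as measured, each of the 1961 called features differed by more than 2-fold in the same direction in both genotypes. That was largely set by the selection, because the fit takes its error from the disagreement between the genotypes, so it does not back the calls. The median absolute difference of the called features was 2.26. For 223 of the higher features no DP array had the probe well above background, and for 188 of the lower ones no CD4SP array had. For these the size is known only as a bound, which can lie below 2-fold, as for Foxo4 in control cells (a fall of at least 0.32). An adjusted p printed beside a bound is that of the fit to the levels as measured, not of the bound. The only error the 4 arrays hold is the disagreement between the transitions of the 2 genotypes, on 1 residual degree of freedom, so the call depends heavily on the variance prior. With quantile normalization, with scaling on probes well above background on all 4 arrays, or without either DP array, no feature passed the adjusted threshold in either direction (limma, with between 3341 and 4588 at an unadjusted p below 0.05), while the 1961 features kept their direction and a difference past 2-fold under both scalings. Keeping direction and size was largely fixed in advance and does not back the calls. The features were selected on these same arrays, with a smallest absolute difference of 1.369. The scalings moved the median stage difference little, from -0.004 to 0.041 (probes well above background) and -0.007 (quantile). On simulated data the share of false calls differed between draws and could exceed the nominal one. Whether separate mice would give this spread cannot be seen from 1 array a group. Close gene copies (Gimap, Klk, Hba, Klra, Ly6, Oas, Schlafen, Bcl2a1 and Hspa1 genes) may share probe signal, so values of their members are uncertain. In such sorted bulk samples, fewer cells of a type and less RNA per cell cannot be told apart.

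**Figure D1:**
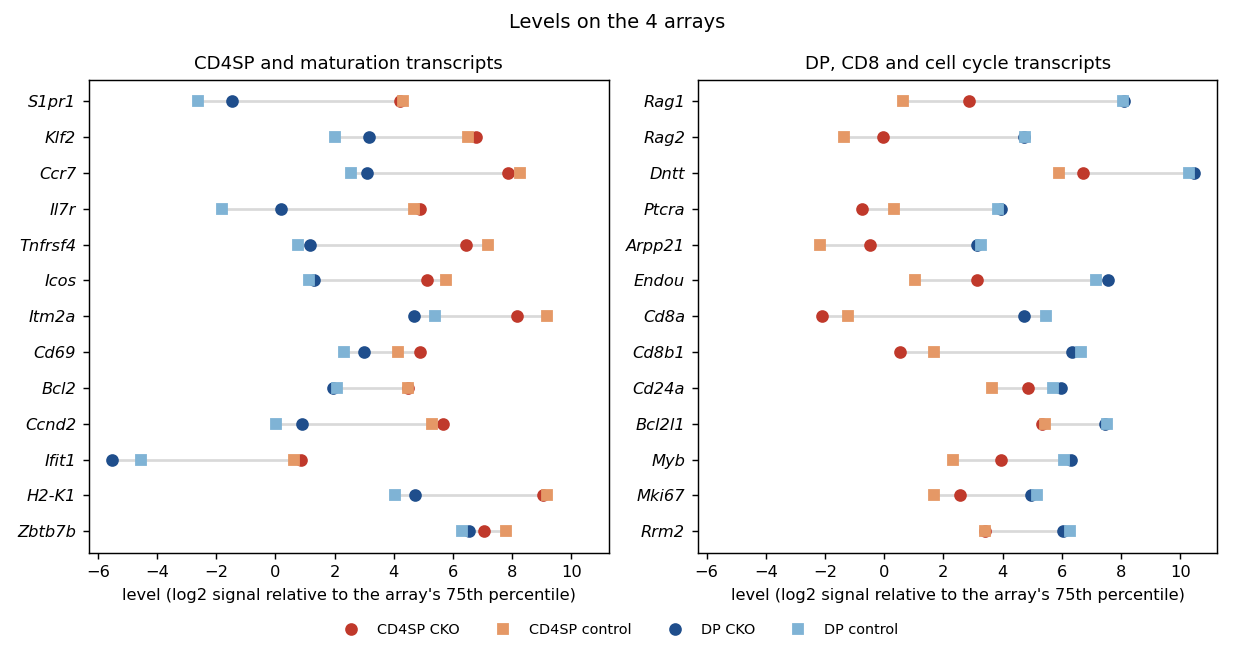
Levels of 26 genes on the 4 arrays (log2 signal relative to the array's 75th percentile), in CD4SP cells of CKO and control mice and in DP cells of CKO and control mice, 1 array each. Points of the 2 CD4SP arrays lie to the right of those of the 2 DP arrays for the 13 genes on the left and to the left of them for the 13 genes on the right; Zbtb7b did not pass the test, and the DP values of Ifit1 are not well above background.

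The transcripts that define the DP stage were lower in CD4SP cells of both genotypes. Of 17 tested members of the DP stage and recombination list, 1 was called higher and 15 lower, with a median of -4.09 beside 0.00 over all features tested. Rag1, the catalytic subunit of the recombinase, had levels of 2.88 (CKO) and 0.62 (control) in CD4SP cells, against 8.09 (CKO) and 8.08 (control) in DP cells. It fell by 6.33 (SE 0.54), with an adjusted p of 0.00191. Rag2, its partner subunit, had levels of -0.04 (CKO) and -1.36 (control) in CD4SP cells, against 4.71 (CKO) and 4.75 (control) in DP cells, and fell by 5.43 (SE 0.42), with an adjusted p of 0.00174. For both subunits the DP arrays of the 2 genotypes nearly coincided, and the CD4SP array of the CKO lay above that of the control. Dntt, the terminal transferase that adds nucleotides at V(D)J junctions, had levels of 6.71 (CKO) and 5.90 (control) in CD4SP cells, against 10.46 (CKO) and 10.30 (control) in DP cells, and fell by 4.08 (SE 0.35), with an adjusted p of 0.00191. Ptcra, the pre-TCR alpha chain, fell by 4.09 (SE 0.40), with an adjusted p of 0.00252. Endou, Arpp21 and Aqp11, which are known as DP transcripts in mouse, fell as well (Endou by 5.29, Arpp21 by 4.53, Aqp11 by 4.52). Cd24a, a surface antigen that thymocytes lose as they mature, had levels of 4.86 (CKO) and 3.66 (control) in CD4SP cells, against 5.99 (CKO) and 5.72 (control) in DP cells, and fell by 1.59 (SE 0.37), with an adjusted p of 0.0468. Cd9, a tetraspanin on the list, went the other way: it had levels of 1.11 (CKO) and 2.85 (control) in CD4SP cells, against -2.09 (CKO) and -0.69 (control) in DP cells, and rose by 3.37 (SE 0.33), with an adjusted p of 0.0026. The nucleoside transporter Slc29a1 had a difference of -0.97 that did not pass.

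The largest falls among 461 eligible named genes also included Tctex1d1 of the same list (by 6.51) and, outside the lists, Ccdc153 by 6.12, A930003A15Rik by 5.91, Scn2b by at least 5.28, Arsi by at least 4.99 and Smoc1 by at least 4.42, and Insl5 fell by 5.79. Insl5 encodes a relaxin-family peptide hormone, Scn2b a beta subunit of voltage-gated sodium channels, and Smoc1 a secreted calcium-binding matrix protein. Scn2b had no signal well above background in CD4SP cells of either genotype, against 1.78 (CKO) and 2.17 (control) in DP cells. Tctex1d1 had levels of -1.55 (CKO) and -3.34 (control) in CD4SP cells (1 of the 2 CD4SP arrays well above background), against 3.92 (CKO) and 4.22 (control) in DP cells, and Smoc1 had no signal well above background in CD4SP cells of either genotype, against 0.49 (CKO) and 1.78 (control) in DP cells.

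Both Cd8 genes fell, which the sort on surface CD8 makes a check of the labels rather than a result. Cd8a had levels of -2.11 (CKO) and -1.23 (control) in CD4SP cells, against 4.71 (CKO) and 5.46 (control) in DP cells, and fell by 6.76 (SE 0.33), with an adjusted p of 0.00164. Cd8b1 had levels of 0.54 (CKO) and 1.67 (control) in CD4SP cells, against 6.33 (CKO) and 6.65 (control) in DP cells, and fell by 5.39 (SE 0.36), with an adjusted p of 0.00164. Cd4, the co-receptor that both sorted populations carry, had levels of 6.38 (CKO) and 6.54 (control) in CD4SP cells, against 6.49 (CKO) and 6.22 (control) in DP cells, a difference of 0.11 that did not pass (adjusted p = 0.929). On the CD4SP arrays both Cd8 genes were lower in CKO than in control cells, and so were they on the DP arrays.

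Of 17 tested members of the CD4 lineage and helper list, 7 were called higher and 0 lower, with a median of 1.01. Tnfrsf4 (OX40), a costimulatory receptor, had levels of 6.45 (CKO) and 7.20 (control) in CD4SP cells, against 1.16 (CKO) and 0.78 (control) in DP cells, and rose by 5.86 (SE 0.39), with an adjusted p of 0.00164. Icos, another costimulatory receptor, had levels of 5.12 (CKO) and 5.78 (control) in CD4SP cells, against 1.30 (CKO) and 1.15 (control) in DP cells, and rose by 4.23 (SE 0.36), with an adjusted p of 0.00191. The sialyltransferase St8sia6 rose by at least 3.46, with an adjusted p of 0.00282, the CD30 ligand Tnfsf8 rose by at least 4.01, with an adjusted p of 0.00164, and RANKL (Tnfsf11), through which CD4SP cells act on medullary epithelium, rose by 4.24 (SE 0.34), with an adjusted p of 0.00177. The transcription factor Lef1 rose by 1.64, and Zfp36l1, which promotes mRNA decay, rose by 1.87. Zbtb7b had levels of 7.06 (CKO) and 7.79 (control) in CD4SP cells, against 6.54 (CKO) and 6.30 (control) in DP cells: both CD4SP arrays were above both DP arrays, yet the difference did not pass (1.01, adjusted p = 0.187). Gata3, which acts upstream of Zbtb7b, and Tox, which CD4 lineage cells require, did not pass either: Gata3 differed by 0.70 with adjusted p = 0.304, and Tox differed by 1.00 with adjusted p = 0.134. Cd40lg was not well above background on any of the 4 arrays.

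Genes known from CD8 and cytotoxic cells also rose in CD4SP cells. Of 14 tested members, 8 were called higher and 1 lower, with a median of 2.46. Gzmb, a granule serine protease, had levels of -0.65 (CKO) and 1.56 (control) in CD4SP cells, against no signal well above background in DP cells of either genotype. Gzmb rose by at least 3.90, with an adjusted p of 0.0113. The chemokines Xcl1 and Ccl5 and the cytokine Ifng rose too (Xcl1 by 4.34, Ccl5 by 2.99, Ifng by 4.29), and Runx3, the CD8 lineage factor, rose by 1.93 (SE 0.33), with an adjusted p of 0.0153. The exception was Gzma, which had levels of 5.34 (CKO) and 2.78 (control) in CD4SP cells, against 7.71 (CKO) and 5.47 (control) in DP cells, and fell by 2.53 (SE 0.33), with an adjusted p of 0.00583. Natural killer receptor genes were well above background on the CD4SP control array, as given with the other cell markers below, and their part in these differences was not tested.

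Called genes were more frequent among those that report receptor signalling than among CD3 chain and proximal signalling genes. Of 19 tested CD3 chain and proximal signalling genes, 2 were called higher and 1 lower, beside 4.53% and 4.48% of all features tested. None of those called was a CD3 chain. Cd3e had levels of 8.32 (CKO) and 8.42 (control) in CD4SP cells, against 8.42 (CKO) and 7.93 (control) in DP cells, a difference of 0.20 that did not pass. The adhesion receptor Cd2 rose by 2.52 (SE 0.33), with an adjusted p of 0.00599, the kinase Fyn rose by 1.94 (SE 0.33), with an adjusted p of 0.0135, and Themis, an adaptor needed for positive selection, fell by 1.74 (SE 0.33), with an adjusted p of 0.0222. Of 20 tested genes of TCR signal and positive selection, 10 were called higher and 0 lower, with a median of 1.502. Itm2a, a membrane protein induced by positive selection in mouse, had levels of 8.16 (CKO) and 9.17 (control) in CD4SP cells, against 4.68 (CKO) and 5.38 (control) in DP cells, and rose by 3.64 (SE 0.33), with an adjusted p of 0.00211. Cd69, the early activation antigen that also opposes S1pr1 at the cell surface, had levels of 4.88 (CKO) and 4.15 (control) in CD4SP cells, against 2.99 (CKO) and 2.33 (control) in DP cells, and rose by 1.86 (SE 0.32), with an adjusted p of 0.0157. The tetraspanin Cd53 rose by 3.95 (SE 0.35), with an adjusted p of 0.00208, and Irf4, a factor graded by TCR signal strength, rose by 3.46 (SE 0.52), with an adjusted p of 0.0092. The immediate early factors Egr1 and Egr2 rose as well (Egr1 by 1.60, Egr2 by 2.38). Cd5 and Nr4a1, which are both read as gauges of receptor signalling, did not pass: Cd5 differed by 1.38 with adjusted p = 0.0522, and Nr4a1 differed by 1.40 with adjusted p = 0.0913. Nr4a1 had levels of 6.37 (CKO) and 6.88 (control) in CD4SP cells, against 5.59 (CKO) and 4.86 (control) in DP cells.

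The egress and homing programme rose. Of 23 tested members, 11 were called higher and 1 lower, with a median of 1.49. S1pr1, the sphingosine phosphate receptor through which thymocytes leave, had levels of 4.22 (CKO) and 4.30 (control) in CD4SP cells, against -1.47 (CKO) and -2.62 (control) in DP cells. S1pr1 rose by 6.31 (SE 0.40), with an adjusted p of 0.00164. Klf2, the factor that drives S1pr1, had levels of 6.77 (CKO) and 6.50 (control) in CD4SP cells, against 3.18 (CKO) and 2.02 (control) in DP cells, and rose by 4.03 (SE 0.37), with an adjusted p of 0.00211. Ccr7, which brings positively selected cells into the medulla, had levels of 7.86 (CKO) and 8.26 (control) in CD4SP cells, against 3.10 (CKO) and 2.55 (control) in DP cells, and rose by 5.24 (SE 0.37), with an adjusted p of 0.00165. For S1pr1 and Klf2 the CD4SP arrays of the 2 genotypes nearly coincided, and the DP array of the CKO lay above that of the control. Further chemokine receptors rose: Cxcr3 by 5.13, Ccr6 by at least 4.47, Ccr8 by at least 4.59, Cxcr5 by at least 2.99 and Cxcr6 by 3.60. Gpr183, an oxysterol receptor, rose by 4.49 (SE 0.32), with an adjusted p of 0.0017. The receptor for a thymic chemokine, Ccr9, did not pass: Ccr9 differed by -0.91 with adjusted p = 0.166. Plxnd1, a semaphorin receptor, fell by 2.69 (SE 0.33), with an adjusted p of 0.00518.

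Surface and cytoplasmic markers of mature thymocytes rose with it. Of 24 tested members, 14 were called higher and 3 lower, with a median of 2.14 (2.09 with genes below background at their bound). Il7r, the receptor for the survival cytokine IL-7, had levels of 4.90 (CKO) and 4.67 (control) in CD4SP cells, against 0.20 (CKO) and -1.81 (control) in DP cells, and rose by 5.59 (SE 0.47), with an adjusted p of 0.00188. Ms4a4b had levels of 7.60 (CKO) and 6.89 (control) in CD4SP cells, against 3.45 (CKO) and 1.54 (control) in DP cells, and rose by 4.75 (SE 0.40), with an adjusted p of 0.00185, and Ly6a (Sca-1) rose by 4.36 (SE 0.32), with an adjusted p of 0.00174. The members that fell were Anxa2 by 3.22, Thy1 by 2.19 and Lgals1 by 1.47. Of the 8 Gimap genes, GTPases of lymphocyte survival encoded in a cluster, 5 were called higher and 0 lower. Gimap4 had levels of 7.19 (CKO) and 7.08 (control) in CD4SP cells, against 2.40 (CKO) and 1.47 (control) in DP cells, and rose by 5.20 (SE 0.36), with an adjusted p of 0.00164. Gimap3, Gimap7, Gimap8 and Gimap5 also rose (Gimap3 by 5.11, Gimap7 by 2.52, Gimap8 by 1.55, Gimap5 by 1.51), while Gimap6, Gimap1 and Gimap9 had differences of 1.12, 0.21 and 0.05 that did not pass. In the quiescence list, which holds Klf, Foxo, Btg and Schlafen genes, 4 were called higher and 1 lower of 18 tested. Slfn1 (Schlafen 1) rose by at least 5.40, with an adjusted p of 0.00164, Foxo1, a factor upstream of Klf2 and Il7r, rose by 1.93 (SE 0.33), with an adjusted p of 0.0142, and Slfn2 rose by 1.495 (SE 0.34), with an adjusted p of 0.0414. Foxo4 fell by at least 0.72. Its adjusted p of 0.00748 belongs to the fitted fall of 2.38 (SE 0.34), which rests on CD4SP signals not well above background.

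Cytokine receptors rose in part. Of 24 tested, 10 were called higher and 0 lower, with a median of 0.46. Il2rb, the beta chain shared by the IL-2 and IL-15 receptors, had levels of 3.67 (CKO) and 4.06 (control) in CD4SP cells, against -0.43 (CKO) and -1.80 (control) in DP cells, and rose by 4.98 (SE 0.47), with an adjusted p of 0.00236. Il6ra rose by 4.71 (SE 0.45), with an adjusted p of 0.00238, Il18r1 rose by at least 3.09, with an adjusted p of 0.00458, and Tgfbr2, the type II receptor for TGF-beta, rose by 2.35 (SE 0.32), with an adjusted p of 0.00686. Il2rg, the common gamma chain, and Ifngr1 did not pass: Il2rg differed by 1.35 with adjusted p = 0.0593, and Ifngr1 differed by -0.81 with adjusted p = 0.222. Among 16 tested feedback and signal genes of these receptors, 5 were called higher and 0 lower: Smad7, an inhibitor of TGF-beta signalling, rose by at least 5.00, with an adjusted p of 0.00164, and Cish, an inhibitor of STAT5 signalling, rose by 4.92 (SE 0.41), with an adjusted p of 0.00183. Pim2 and Jak3 rose too (Pim2 by 1.89, Jak3 by 1.55). The cytokine signalling inhibitor Socs1 differed by -0.96 with adjusted p = 0.149 and did not pass.

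Interferon-stimulated genes were the list with the highest share of risers among those with 20 or more members tested. Of 23 tested, 20 were called higher and 0 lower, with a median of 2.21, and the 3 that did not pass, Stat2, Igtp and Zbp1, had positive differences of 0.41, 1.01 and 1.85. Samhd1, which degrades deoxynucleotides, had levels of 5.38 (CKO) and 6.17 (control) in CD4SP cells, against 0.05 (CKO) and -1.03 (control) in DP cells, and rose by 6.27 (SE 0.49), with an adjusted p of 0.00175. Ifit1, which binds foreign RNA ends, had levels of 0.86 (CKO) and 0.64 (control) in CD4SP cells, against no signal well above background in DP cells of either genotype, and rose by at least 4.20, with an adjusted p of 0.00164. Ifit3, a protein of the same family, rose by 5.48 (SE 0.32), with an adjusted p of 0.00164. Ifi27l2a, a small membrane protein gene induced by interferon, had levels of 8.48 (CKO) and 9.68 (control) in CD4SP cells, against 3.67 (CKO) and 3.96 (control) in DP cells, and rose by 5.26 (SE 0.37), with an adjusted p of 0.00164. Oas1a, an oligoadenylate synthetase that senses double-stranded RNA, had levels of 2.76 (CKO) and 3.89 (control) in CD4SP cells, against 0.19 (CKO) and -0.35 (control) in DP cells, and rose by 3.40 (SE 0.46), with an adjusted p of 0.00633. Irf7 and Irf9, the factors that carry the response, rose as well (Irf7 by 3.07, Irf9 by 2.91). Myeloid and dendritic markers were higher in CD4SP cells too (7 of 13 called, with sums given below), and their part was not tested.

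The promoters of these genes show the letters that interferon response factors are known to bind. Promoters were the stretches of RefSeq (GRCm38.p6) around each gene's start, most of their length before it, and 9448 of the 11765 named genes tested had one. The motif GAAANNGAA, searched on both strands with overlapping matches counted, was in 8.6% of all 27025 promoters and in 7.4% of those of tested genes. It was in 92 of 544 promoters of genes called higher (16.9%) and in 34 of 537 of genes called lower (6.3%). In the interferon-stimulated list it was in 10 of 18 promoters (55.6%). The promoters of Ifit1 (chr19:34640639-34640938, plus strand), Ifit3 (chr19:34583279-34583578, plus strand) and Oas1a (chr5:120907476-120907775, minus strand), are shown 5′ to 3′ as those of the called members of this list with the largest rises among promoters that hold a match. They hold 3, 3 and 2 matches; capitals mark the bases in a match on either strand.
Ifit1: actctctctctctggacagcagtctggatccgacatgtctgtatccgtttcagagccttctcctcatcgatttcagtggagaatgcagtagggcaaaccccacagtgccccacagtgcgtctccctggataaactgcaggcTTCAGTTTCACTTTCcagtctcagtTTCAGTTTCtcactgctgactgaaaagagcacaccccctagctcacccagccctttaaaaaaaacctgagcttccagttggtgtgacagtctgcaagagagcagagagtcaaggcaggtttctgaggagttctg
Ifit3: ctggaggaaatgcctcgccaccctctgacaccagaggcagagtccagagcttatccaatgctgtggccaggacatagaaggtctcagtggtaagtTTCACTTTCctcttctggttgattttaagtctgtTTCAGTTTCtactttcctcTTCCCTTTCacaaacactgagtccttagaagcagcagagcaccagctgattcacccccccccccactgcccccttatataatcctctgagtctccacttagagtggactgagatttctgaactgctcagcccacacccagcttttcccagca
Oas1a: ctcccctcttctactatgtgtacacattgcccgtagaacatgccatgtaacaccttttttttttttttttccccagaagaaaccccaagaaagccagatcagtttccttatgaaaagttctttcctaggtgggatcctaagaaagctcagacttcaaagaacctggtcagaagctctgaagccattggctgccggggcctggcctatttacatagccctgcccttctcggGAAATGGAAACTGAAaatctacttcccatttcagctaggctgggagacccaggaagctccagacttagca
A match is a description of these letters and not a binding site. Of the other motifs searched, the AP-1 motif TGANTCA was in 8.1% of promoters of genes called higher, 3.5% of those called lower and 4.9% of those tested. The Ets motif CCGGAAGT was in 1.8% of promoters of genes called higher and 4.8% of those called lower, below the 8.6% of those tested. The Klf-type motif CCACNCC (45.4%, 42.5% and 40.4%), the E box CAGGTG (16.7%, 18.1% and 17.4%), the nuclear receptor motif AGGTCA (14.7%, 12.3% and 12.8%) and the NF-kappaB motif GGGNTTTCC (2.2%, 1.7% and 1.9%) were at similar shares in genes called higher, called lower and tested.

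Of 13 tested class I and presentation genes, 5 were called higher and 0 lower. The class I heavy chain H2-K1 had levels of 9.05 (CKO) and 9.17 (control) in CD4SP cells, against 4.72 (CKO) and 4.03 (control) in DP cells, and rose by 4.73 (SE 0.36), with an adjusted p of 0.00174. H2-D1 rose by 2.92 (SE 0.38), with an adjusted p of 0.00599, its light chain partner B2m rose by 2.28 (SE 0.37), with an adjusted p of 0.0124, and Nlrc5, the transactivator of class I genes, rose by 3.48 (SE 0.38), with an adjusted p of 0.0037. Tapbp (tapasin) rose by 1.99. Of 15 tested NF-kappaB and feedback genes, 4 were called higher and 0 lower: Bcl3, a nuclear IkappaB protein, rose by 5.25 (SE 0.34), with an adjusted p of 0.00164, Relb rose by 2.72 (SE 0.35), with an adjusted p of 0.00566, and Nfkbid and Nfkb2 rose by 1.99 and by 1.60.

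The survival genes Bcl2 and Bcl2l1 moved in opposite directions. Bcl2, the survival protein of mature T cells, had levels of 4.50 (CKO) and 4.49 (control) in CD4SP cells, against 1.95 (CKO) and 2.07 (control) in DP cells, and rose by 2.48 (SE 0.32), with an adjusted p of 0.00596. Bcl2l1, whose product Bcl-xL protects DP cells, had levels of 5.33 (CKO) and 5.43 (control) in CD4SP cells, against 7.47 (CKO) and 7.52 (control) in DP cells, and fell by 2.12 (SE 0.32), with an adjusted p of 0.00951. For both genes the arrays of a stage lay close together and those of the 2 stages apart. Among 18 tested genes of the Bcl2 family and death list, 2 were called higher and 3 lower; Bcl2a1d rose by 3.86, and the BH3-only genes Bmf and Bid fell (Bmf by 3.47, Bid by 1.76).

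Cell cycle genes were lower in CD4SP cells. Of 20 tested mitosis genes, 0 were called higher and 20 lower, with a median of -2.63. Of 24 tested replication genes, 0 were called higher and 11 lower, with a median of -1.29. Mki67, the proliferation antigen Ki-67, had levels of 2.57 (CKO) and 1.69 (control) in CD4SP cells, against 4.95 (CKO) and 5.18 (control) in DP cells, and fell by 2.93 (SE 0.39), with an adjusted p of 0.00608. The separase gene Espl1 fell by 3.15 (SE 0.46), with an adjusted p of 0.0081, and the spindle checkpoint kinase gene Bub1b fell by 3.00 (SE 0.37), with an adjusted p of 0.00502. Rrm2, the regulated subunit of ribonucleotide reductase, had levels of 3.40 (CKO) and 3.41 (control) in CD4SP cells, against 6.04 (CKO) and 6.27 (control) in DP cells, and fell by 2.75 (SE 0.33), with an adjusted p of 0.00454, and Uhrf1, which maintains DNA methylation at replication forks, fell by 2.71 (SE 0.32), with an adjusted p of 0.00461. Among 14 tested G1 genes, the D-type cyclins parted: Ccnd2 had levels of 5.68 (CKO) and 5.28 (control) in CD4SP cells, against 0.89 (CKO) and 0.01 (control) in DP cells, and rose by 5.03 (SE 0.34), with an adjusted p of 0.00164, while Ccnd3 had levels of 7.05 (CKO) and 7.12 (control) in CD4SP cells, against 8.47 (CKO) and 8.51 (control) in DP cells, and fell by 1.40 (SE 0.32), with an adjusted p of 0.0458. The factor E2f2 and the inhibitor Cdkn2c fell with Ccnd3 (E2f2 by 3.33, Cdkn2c by 2.41).

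Costimulatory and regulatory T cell genes rose, and the lists overlap in Ctla4 and Tnfrsf18. Of 16 tested costimulatory and inhibitory receptors, 8 were called higher and 0 lower, among them the inhibitory receptor Btla by 4.67. Of 12 tested regulatory T cell genes, 10 were called higher and 0 lower, with a median of 2.93 (2.59 with genes below background at their bound). Foxp3, the factor of that lineage, had levels of 0.82 (CKO) and 0.50 (control) in CD4SP cells, against -1.63 (CKO) and -2.61 (control) in DP cells, and rose by 2.78 (SE 0.35), with an adjusted p of 0.00523. Ikzf4 rose by 3.95 (SE 0.36), with an adjusted p of 0.00211, and Gpr83 rose by at least 2.02, with an adjusted p of 0.00174. The members that did not pass were Ikzf2 and Nrp1. Ikzf2 differed by 0.81 (limma, adjusted p = 0.301). Nrp1 went the other way, with a fitted difference of -1.28 (limma, adjusted p = 0.111). Its bound was -1.14, with no CD4SP array well above background. The sort did not separate regulatory from conventional CD4SP cells.

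Transcription factors of the T lineage moved both ways. Of 27 tested, 4 were called higher and 5 lower, with a median of 0.16. Bach2, a repressor that keeps T cells naive, had levels of 1.61 (CKO) and 1.88 (control) in CD4SP cells, against -1.67 (CKO) and -2.02 (control) in DP cells, and rose by 3.59 (SE 0.34), with an adjusted p of 0.00246. Runx3, given above, was another of the 4. Id2, an inhibitor of E proteins, had levels of 4.40 (CKO) and 5.41 (control) in CD4SP cells, against 1.68 (CKO) and 1.45 (control) in DP cells, and rose by 3.34 (SE 0.40), with an adjusted p of 0.00466, whereas its relative Id3 differed by -0.17 with adjusted p = 0.879 and did not pass. Lef1 rose by 1.64, while its relative Tcf7 differed by -0.98 with adjusted p = 0.139 and did not pass. Myb, which DP survival requires, had levels of 3.95 (CKO) and 2.32 (control) in CD4SP cells, against 6.32 (CKO) and 6.08 (control) in DP cells, and fell by 3.07 (SE 0.42), with an adjusted p of 0.00679. The other members that fell were Gfi1 by 2.29, Bcl6 by 2.22, Ets2 by 1.95 and the E protein gene Tcf12 by 1.58. Of 9 tested genes of the DN stage and Notch list, 4 were called higher and 1 lower; Notch3 fell by 3.17, while Dtx1 rose by 2.40, Il2ra by 2.17, Kit by 2.08 and Cd44 by 2.06.

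Among the remaining lists, glycosyltransferase genes changed most often. Of 15 tested, 8 were called higher and 1 lower, with a median of 1.43 (1.09 with genes below background at their bound). The sialyltransferases St3gal1 and St6gal1 rose (St3gal1 by 2.59, St6gal1 by 2.53), and the fucosyltransferase Fut7, which builds selectin ligands, rose by 3.34. The branching enzyme Mgat5 fell by 1.68. Of 15 RGS and small GTPase regulators, 4 were called higher and 0 lower: Rgs1 by 4.37, Rgs16 by 2.73, Rasa3 by 2.46 and Rgs10 by 1.502. In nucleotide metabolism, 2 were called higher and 2 lower of 16 tested. Beside Samhd1, the ectonucleotidase gene Nt5e (CD73) rose by at least 4.44, with an adjusted p of 0.00191, while the kinase gene Dck and the deaminase gene Ada fell (Dck by 2.64, Ada by 2.37). Glycolysis genes showed 2 higher, Slc2a3 and Aldoc, and 1 lower, Ldhb, of 16 tested (Slc2a3 by 1.88, Aldoc by 1.74, Ldhb by 2.24). Of 13 AP-1 and immediate early genes, 3 were called higher (Fosl2 by 2.11, Batf by 1.94, Dusp1 by 1.498) and 0 lower. Of 11 heat shock genes, 1 was called higher, Hspa1a by 2.44, and 0 lower. Over all features tested 4.53% were called higher and 4.48% lower. The small counts of the nucleotide, glycolysis and heat shock lists are therefore not read as traits of those lists.

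Named genes with the largest rises among 445 eligible that lie in none of these lists were Penk by at least 4.90, Apol9b by 6.60, Igfbp4 by at least 4.87, Ptgir by 6.19, Vipr1 by 5.92 and Asb2 by at least 4.37. Penk encodes proenkephalin, Ptgir the prostacyclin receptor, Vipr1 a receptor of vasoactive intestinal peptide, and Igfbp4 an insulin-like growth factor binding protein. Vipr1 had levels of 4.33 (CKO) and 4.03 (control) in CD4SP cells, against -1.25 (CKO) and -2.22 (control) in DP cells, and Ptgir had 2.33 (CKO) and 3.18 (control) in CD4SP cells, against -3.88 (CKO) and -2.99 (control) in DP cells (1 of the 2 DP arrays well above background).

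**Figure D2:**
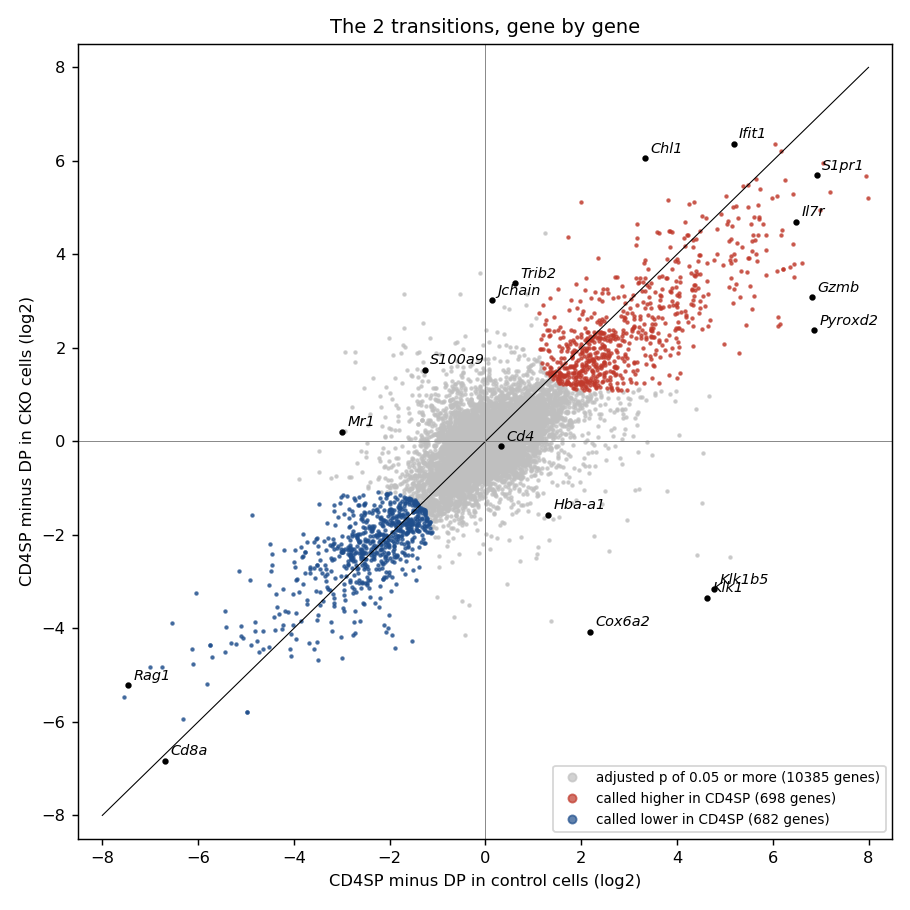
CD4SP minus DP (log2) in CKO cells (vertical axis) against control cells (horizontal axis) for the 11765 named genes tested, with called genes in colour and 17 genes labelled in black; the diagonal is equality. Called genes lie in the lower left and upper right corners, and Klk1, Klk1b5 and Cox6a2 lie far from the diagonal at the lower right.

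The transition was then set side by side in the 2 genotypes, pairs that share no array. In CKO cells 2350 features (10.8%) were more than 2-fold higher in CD4SP than DP cells and 1952 (8.97%) more than 2-fold lower. In control cells 2443 features (11.2%) were higher and 2851 (13.1%) lower. Of these, 1179 were higher in both genotypes (50.2% of those in CKO cells and 48.3% of those in control cells) and 1287 lower in both (65.9% and 45.1%). Across features the transitions correlated with Pearson r = 0.601 and Spearman rho = 0.437. Among named genes r was 0.795, and among probes without a symbol 0.335. Features share their array and are no replicates, so these values are descriptions.

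The difference between the transitions, CKO minus control, has no replicate and no test. It was above 2-fold for 2478 features (11.4%) and below minus 2-fold for 1733 (7.96%), with a median of -0.19 over all features tested. With scaling on probes well above background on all 4 arrays the median was 0.00 and the counts were 3078 and 1108, so the differences below are to be read against that median. Over the called features the slope of the CKO transition on the control transition was 0.818. Over all features tested the standard deviation of the transition was 1.007 in CKO cells and 1.181 in control cells. By these 2 values transitions were smaller in CKO cells, but not in every class of feature. Among probes without a symbol, 1257 were more than 2-fold higher in CKO cells and 878 in control cells, while 674 and 1571 were lower. Among named genes 1093 and 1565 were higher, and 1278 and 1280 lower. The list differences below are also to be read against the slope and the spread. In a list of genes that move with the transition, this difference can arise on the CD4SP arrays or on the DP arrays, and both are given. Over all features the CKO array differed from the control array by a median of -0.01 in CD4SP cells and 0.14 in DP cells.

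By value, and with no test, DP stage genes were less reduced in CKO cells, to be read against the slope of 0.818 over called features. The median transition of the 17 tested genes was -3.76 in CKO cells and -4.41 in control cells, the difference was positive for 12 and above 2-fold for 7, and its median was 0.93. Most of it was on the CD4SP arrays: the CKO array was above the control array by a median of 1.03 in CD4SP cells, for 13 of 17 genes, and by 0.10 in DP cells. The transition of Rag1 was -5.21 in CKO cells and -7.46 in control cells, that of Arpp21 -3.62 in CKO cells and -5.43 in control cells, and that of Endou -4.45 in CKO cells and -6.14 in control cells. Ptcra went against this, with -4.68 in CKO cells and -3.50 in control cells, and the Cd8 genes were lower in CKO than in control CD4SP cells. For mitosis genes the difference was positive for 19 of 20, with a median of 0.56. The CKO array was above the control array for 16 of 20 in CD4SP cells (median 0.42) and for 2 of 20 in DP cells (median -0.21). Cenpe, a spindle motor, had transitions of -1.98 in CKO cells and -3.81 in control cells. The 24 replication genes had a median difference of 0.01, positive for 13.

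In the following 4 lists, chosen after their values were seen, the median difference was below that of all features and the CKO array was above the control array for more genes in DP than in CD4SP cells. The same was true of other lists, among them CD4 lineage (median -0.43), egress (-0.42), Gimap (-0.48) and NF-kappaB (-0.47) genes. It also held for cytokine receptor (-0.40), glycolysis (-0.52) and RGS (-0.46) genes, so it is not particular to the 4 lists. For the 23 interferon-stimulated genes the median difference of the transitions was -0.81; the CKO array was above the control array for 17 of 23 genes in DP cells (median 0.64) and for 10 of 23 in CD4SP cells (median -0.13). For the 14 CD8 and cytotoxic genes the median difference was -1.14, with the CKO array above the control array for 14 of 14 genes in DP cells and 5 of 14 in CD4SP cells. For the 12 regulatory T cell genes it was -1.09, with 11 of 12 in DP cells and 4 of 12 in CD4SP cells. For the 13 class I genes it was -0.58, with 13 of 13 in DP cells and 9 of 13 in CD4SP cells. The mature thymocyte list also had a median difference below that of all features, -0.54. Its CKO array was above the control array for 15 of 24 genes in DP cells and 7 of 24 in CD4SP cells. There, however, the CD4SP arrays (CKO minus control median -0.27) differed by more than the DP arrays (0.21). For Il7r the transition was 4.70 in CKO cells and 6.49 in control cells, with CD4SP levels of 4.90 (CKO) and 4.67 (control) close together and DP levels of 0.20 (CKO) and -1.81 (control) apart. Cxcr6 had transitions of 1.90 in CKO cells and 5.30 in control cells, and Irf4 of 2.40 in CKO cells and 4.52 in control cells. The lists of cytokine feedback, costimulatory receptor and quiescence genes lay above the all-feature median, at -0.08, -0.10 and 0.15. Granulocyte, erythroid and myeloid markers also differed between the genotypes at both stages and natural killer markers on the CD4SP arrays, by the sums given with the other cell markers, and their part was not tested.

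**Figure D3:**
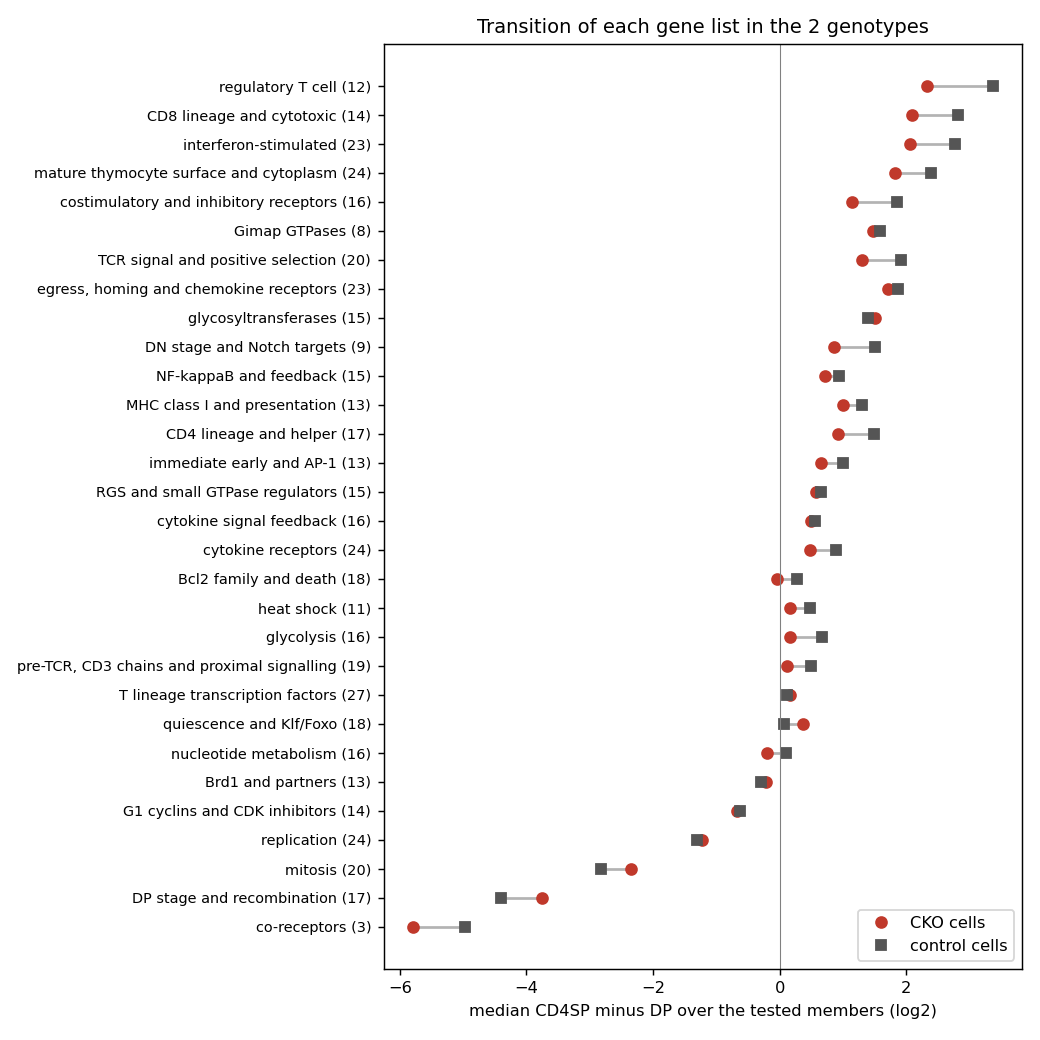
Median CD4SP minus DP difference (log2) over the tested members of each list other than the markers of other cells and the sex-linked genes, in CKO cells (circles) and control cells (squares), with the number of members tested in brackets. Medians of the 2 genotypes have the same sign in all plotted lists except the Bcl2 family and nucleotide metabolism lists, which lie near 0.

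Single genes with the most positive difference were Mr1, Jchain, Igsf3, S100a9, Lingo4, Trib2, Chl1, Smoc1, S100a8 and Ipcef1, from 3.20 to 2.48. Some of these values rest on signals not well above background, so that their size and order are uncertain: Smoc1 was not well above it on either CD4SP array, Igsf3 on either CKO array, Lingo4 on the CD4SP control array, and Chl1 and S100a8 on the DP CKO array. Mr1, which presents microbial metabolites to MAIT cells, had levels of 2.11 (CKO) and -1.18 (control) in CD4SP cells, against 1.91 (CKO) and 1.81 (control) in DP cells; the CD4SP control array was low and the other 3 arrays lay together. Jchain, the joining chain of secreted antibodies and a plasma cell transcript, had levels of 2.80 (CKO) and 0.60 (control) in CD4SP cells, against -0.22 (CKO) and 0.46 (control) in DP cells, with the CD4SP CKO array high. Trib2, a pseudokinase gene, had levels of 1.1 (CKO) and 3.07 (control) in CD4SP cells, against -2.29 (CKO) and 2.46 (control) in DP cells, with the DP CKO array low. Chl1, a cell adhesion molecule gene known from neurons, had levels of 0.88 (CKO) and 1.67 (control) in CD4SP cells, against -5.19 (CKO) and -1.66 (control) in DP cells (1 of the 2 DP arrays well above background); it was called higher, and its difference of 2.73 turned to -0.10 with normexp background correction.

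The most negative differences were those of Klk1, Klk1b5, Klk1b24, Cox6a2, Klk1b26, Pyroxd2, Klk1b8, Gzmb, Ifng and Xcl1, from -7.98 to -3.64. Except for Klk1b26, each rests on at least 1 signal not well above background, so that their size and order are uncertain. These were CD4SP CKO for Klk1, Klk1b5 and Cox6a2, both CKO arrays for Klk1b24 and Klk1b8, both DP arrays for Pyroxd2 and Gzmb, and DP control for Ifng and Xcl1. Klk1, a tissue kallikrein known from salivary gland and kidney, had levels of -5.75 (CKO) and 2.41 (control) in CD4SP cells (1 of the 2 CD4SP arrays well above background), against -2.41 (CKO) and -2.22 (control) in DP cells. Cox6a2, the muscle form of a cytochrome oxidase subunit, had levels of -3.18 (CKO) and 1.85 (control) in CD4SP cells (1 of the 2 CD4SP arrays well above background), against 0.89 (CKO) and -0.34 (control) in DP cells. In both the CD4SP control array was high and the CD4SP CKO array low. Pyroxd2 had levels of -2.48 (CKO) and 1.06 (control) in CD4SP cells, against no signal well above background in DP cells of either genotype, and it rose by at least 2.73, with an adjusted p of 0.027. Xcl1 had levels of 1.1 (CKO) and 1.18 (control) in CD4SP cells, against -1.42 (CKO) and -4.99 (control) in DP cells (1 of the 2 DP arrays well above background), and Ifng had 0.56 (CKO) and 1.11 (control) in CD4SP cells, against -1.90 (CKO) and -5.01 (control) in DP cells (1 of the 2 DP arrays well above background); for both the CD4SP arrays were alike and the DP control array was the low one. Kallikrein genes are close copies, so their probes may read each other's transcripts.

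Features that changed by more than 2-fold in opposite directions were mostly probes without a gene symbol. Of the 397 higher in CKO cells and lower in control cells, 359 had no symbol, and of the 46 with the reverse, 15 had none. A difference above 2-fold was found for 5.23% of named genes, 21.4% of 4757 probes given by a genome interval and 30% of 1238 probes given by a cDNA clone or mRNA accession. A difference below minus 2-fold was found for 7.96%, 8.85% and 8.08% of the same classes. Detection moved with it: probes without a symbol were well above background at 35.23% (CD4SP CKO), 28.57% (CD4SP control), 32.43% (DP CKO) and 35.74% (DP control), against 56.34%, 53.08%, 55.15% and 56.87% of named probes on the same arrays. The part of detection in this pattern was not tested. Among named genes, 11 were eligible for naming as opposite, and the 8 with the largest smaller change were Klk1, Klk1b5, Klk1b24, Cox6a2, Hba-a2, Hba-a1, S100a9 and Pdlim4. Pdlim4, a cytoskeletal adaptor gene, had levels of 1.33 (CKO) and 2.54 (control) in CD4SP cells, against 2.59 (CKO) and 0.65 (control) in DP cells.

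**Figure D4:**
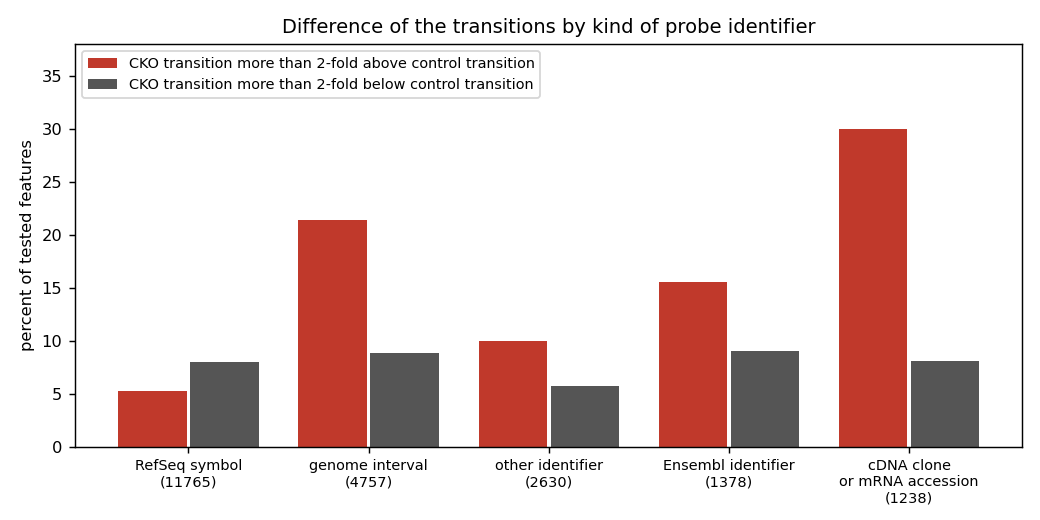
Percent of tested features whose CKO transition was more than 2-fold above or below the control transition, by kind of probe identifier, with the number tested in brackets. The share above 2-fold is 5.23% for RefSeq symbols and 30% for cDNA clone or mRNA accessions, and the share below lies between 5.74% and 9.07% in every class.

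Markers of other cell types were not even between the arrays. Values are summed linear signals of a list's measured markers in units of the array's 75th percentile. Myeloid and dendritic markers summed to 112 (CKO) and 174 (control) in CD4SP cells, against 63.1 (CKO) and 85.7 (control) in DP cells, and 7 of 13 tested were called higher, Cd74 by 2.13 and H2-Ab1 by 1.70 among them. The DP sums do not stand for most markers: the CKO array was above the control array for 8 of 13 in DP cells (median 0.18). In CD4SP cells it was above for 2 of 13 (median -0.62). Natural killer markers summed to 0.435 (CKO) and 8.63 (control) in CD4SP cells, against 0.519 (CKO) and 0.457 (control) in DP cells. Of that list Zbtb16 alone was tested, and 5 of the other 6 genes, Klrb1c, Klra8, Klra7, Klre1 and Klrd1, were well above background on 1 array, that of CD4SP control cells, while Ncr1 was not on any. Granulocyte markers summed to 4.56 (CKO) and 9.09 (control) in CD4SP cells, against 4.78 (CKO) and 15.2 (control) in DP cells. S100a8 and S100a9 were likewise lower in CKO cells at both stages, and the difference of transitions was positive for 4 of 5 markers tested. Elane, the brightest of the list on both CKO arrays, did not follow. It had levels of 1.815 (CKO) and 2.18 (control) in CD4SP cells, against 2.09 (CKO) and 1.93 (control) in DP cells. Erythroid markers summed to 7.70 (CKO) and 16.6 (control) in CD4SP cells, against 20.2 (CKO) and 8.40 (control) in DP cells, with none called of 7 tested. Kallikreins summed to 1.63 (CKO) and 43.2 (control) in CD4SP cells, against 2.38 (CKO) and 2.98 (control) in DP cells. In the B cell list Cd79a and Pax5 were not tested for lack of signal, and Cd79b, which thymocytes also express, fell by 2.73. Of 5 stromal markers tested none was called. The part of these cells in the differences between the transitions was not tested.

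**Figure D5:**
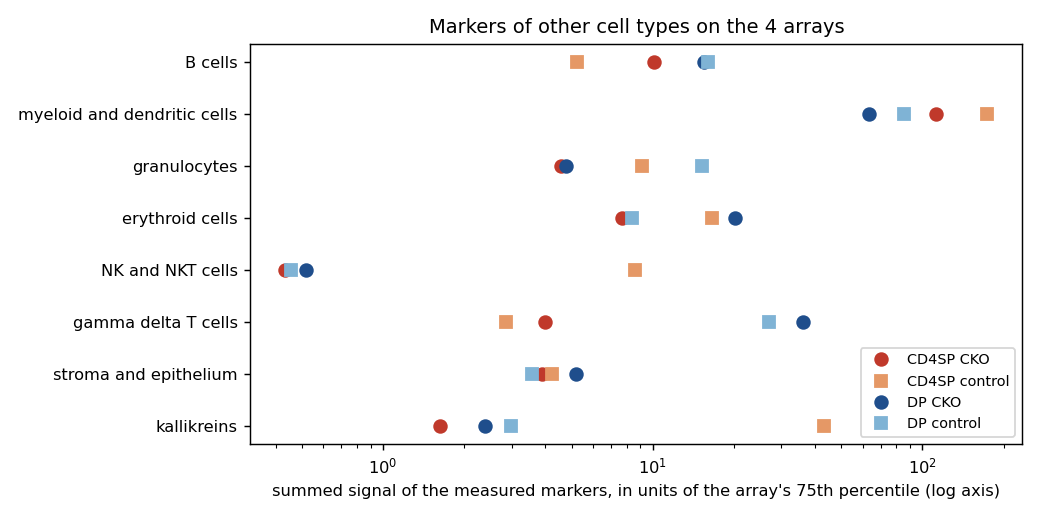
Summed signal of the measured markers of 8 other cell types or tissues on the 4 arrays, in units of the array's 75th percentile on a log axis. The CD4SP control array stands to the right for natural killer markers (8.63) and kallikreins (43.2).

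Brd1 itself had levels of -0.99 (CKO) and -1.09 (control) in CD4SP cells, against -0.33 (CKO) and -0.79 (control) in DP cells, a difference between stages of -0.48 that did not pass (adjusted p = 0.522), and neither CKO array had it below its control. Where its probe lies relative to the deleted exons is not known from the files, so it does not check the labels. Of 13 tested genes of Brd1 and its complex partners, 0 were called higher and 0 lower. Their differences between stages had a median of -0.33. Kat7, the catalytic subunit with which Brd1 is known to assemble, had levels of 4.50 (CKO) and 4.38 (control) in CD4SP cells, against 4.71 (CKO) and 4.67 (control) in DP cells. Xist was not well above background on any of the 4 arrays, and the Y-linked genes Ddx3y and Eif2s3y were on all 4.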

How the data were processed

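RNA of sorted thymocytes was hybridised to one-colour Agilent mouse arrays. Per the file headers, the deposited scanner files were made with Agilent Feature Extraction 10.7.1.1 and hold background-subtracted, spatially detrended spot intensity, with no scaling between arrays. The deposited series values are an intensity per probe, which correlated with the scanner signal at r = 1 on each array and is scaled so that each array's 75th percentile is 1; how the authors made it is not given in the sources used here. The labels' protocol speaks of biotin-labelled RNA, while the scanner files hold a Cy3 channel.

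From the deposited intensity, log2 values minus each array's 75th percentile were computed in R 4.3.3 with the data.table package (1.17.8) over 55537 probes (control spots and 144 outlier probes left out, spots of a probe averaged). Of these, 26715 probes carried 20258 RefSeq symbols and 28822 carried none. Where a gene had several probes, the one brightest on average across all 9 arrays stood for it. Features were kept where a probe was well above background on at least 2 of the 4 arrays. Stage was tested with limma 3.58.1 (stage and genotype as terms, moderated variance, Benjamini-Hochberg adjustment over 21768 features, threshold 0.05). The script was tested on simulated data, where the share of false calls moved with the estimated prior. Every p-value in the text is limma's.

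Genes were named by a rule: 12 with the largest rise and 12 with the largest fall called, 10 with the most positive and 10 with the most negative difference of transitions, 8 with opposite transitions, the leading members of each list, co-receptors, markers of other cells and textbook genes. Other members were named where few were called, after their values were seen. The members and the 39 lists were chosen with earlier results of these data known. Some members of the lists are counted but not reported here by name. Promoters came from a RefSeq table (GRCm38.p6), 1 per gene, the first listed where it gave several starts. Normexp used the spots' median signal, because the files hold no mean signal. The alternatives were other scalings, normexp, the deposited table, other filters, probe averaging, other fits and fold thresholds, and leaving out each array.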

Additional observations from a re-analysis of the deposited data

Results flagged for a closer look

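Some genes moved in opposite directions in the 2 genotypes, the CD4SP array lying on the other side of the DP array in CKO than in control cells. With 1 array per stage and genotype, none of these differences was tested. The difference of the transitions, CKO minus control, was -7.98 for Klk1, -7.94 for Klk1b5, -6.85 for Klk1b24 and -6.27 for Cox6a2. In these 4 genes the CD4SP CKO array was not well above background, so the values rest partly on signals near background. The CKO transition was -3.35 for Klk1 and the control transition 4.63. For the haemoglobin genes the difference was -2.88 (Hba-a1) and -3.06 (Hba-a2), with every array well above background, and for Pdlim4 it was -3.15. For the granulocyte genes the sign was the other one, 2.80 for S100a9 and 2.56 for S100a8, the S100a8 probe not being well above background on the DP CKO array. The median difference over all features tested was -0.19.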

How the results depend on the processing

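The stages were compared within genotype through the genotype term of the fit. No pairing by mouse was possible, because each stage and genotype has 1 array. Of 986 features called higher and 975 lower by limma, 0 and 0 passed with scaling on probes well above background on all 4 arrays (4588 at an unadjusted p below 0.05) and with quantile normalization (4572). With normexp the counts were 1610 and 1813, in the fit on 9 arrays 478 and 212, and with a variance trend 1781 and 1876. Without the genotype term 633 were called higher. Leaving out 1 array at a time gave 0 to 721 higher and 0 to 825 lower: 549 and 550 without the CD4SP control array, and 0 and 0 without the DP CKO array (3458 at an unadjusted p below 0.05) or without the DP control array (3341). Under each of these alternatives at least 1959 of the 1961 called features kept the direction of their difference. That was largely fixed in advance, because the features were selected on these same arrays, so it does not back the calls. Among the alternatives with the same features tested, normexp left 1312 past 2-fold. The calls lost under the scalings came with a lower estimated prior degrees of freedom, 2.21 and 1.97 against 5.66.

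Normexp, no filter, a filter on all 4 arrays, RefSeq symbols alone (an alternative chosen after seeing the data), 1.5-fold and 4-fold moved the counts past the fold. In CKO cells, 2350 features higher became 928, 4072, 1380, 1093, 4165 and 770, and 1952 lower became 990 (normexp), 3858 (no filter), 1278 (symbols), 4131 (1.5-fold) and 599 (4-fold). In control cells, 2443 higher became 1035 (normexp), 5263 (no filter), 1565 (symbols), 5050 (1.5-fold) and 912 (4-fold), and 2851 lower became 1213 (normexp), 1603 (all 4 arrays), 1280 (symbols), 4802 (1.5-fold) and 954 (4-fold). For the difference of the transitions, 2478 above became 670, 4310, 1167, 615, 3982 and 935 in the order named first, and 1733 below became 282, 11199, 1120, 936, 4843 and 280, and 1108 with scaling on probes well above background on all 4 arrays. Opposite features higher in CKO cells (397) became 47 (normexp), 141 (all 4 arrays), 38 (symbols), 910 (1.5-fold) and 28 (4-fold), and those lower in CKO cells (46) became 3 (normexp), 321 (no filter), 9 (all 4 arrays), 226 (1.5-fold) and 10 (4-fold). Pearson's r of 0.601 became 0.736 (normexp), 0.351 (no filter) and 0.795 (symbols). Without a filter the median stage difference of all features was 0.29, against 0.00 with it.

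Some differences of transitions changed sign. As reported they were -0.19 over all features, -0.12 for glycosyltransferases, -0.13 for AP-1, -0.18 for CD3 chains, -0.15 for T lineage factors, -0.41 for heat shock, 0.63 for B cell markers and -0.36 for gamma delta markers (list medians), and -1.10 for Slfn1, 1.94 for Insl5 and 2.73 for Chl1. With scaling on probes well above background on all 4 arrays they were 0.001 over all features, 0.070 for glycosyltransferases, 0.062 for AP-1, 0.015 for CD3 chains and 0.045 for T lineage factors. With quantile normalization they were 0.034 for heat shock, 0.018 for AP-1, 0.015 for CD3 chains and 0.141 for T lineage factors. With normexp they were 0.13 for glycosyltransferases, 0.037 for AP-1, -0.12 for B cell markers, 0.11 for CD3 chains, 0.11 for T lineage factors, 0.24 for Slfn1, -0.56 for Insl5 and -0.10 for Chl1. With a filter on all 4 arrays they were 0.078 for glycosyltransferases, -0.16 for B cell markers and 0.54 for gamma delta markers, and the stage median of the DN and Notch list was -0.21, against 1.18 as reported. With the mean of all probes it was 0.27 for T lineage factors. Leaving out 1 array at a time, the stage median of erythroid markers ran from -0.73 to 0.38 (0.38 without the CD4SP CKO array and 0.25 without the DP CKO array), that of kallikreins from -0.45 to 4.38 and that of natural killer markers from -0.42 to 0.82, the lowest of both without the CD4SP control array. The cause was not tested. Of all 920 list medians under the alternatives, 23 changed sign from a reported median that was not near 0. Of the others, 771 were counted as staying within the spread and 126 as moved. Those counts include medians near 0 that changed sign. The stage median of all features, for example, was -0.004 as reported and 0.041 with scaling on probes well above background on all 4 arrays. Signal near background limits what low genes can show.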
